A study of Rattus norvegicus with 2 samples.

Results

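The miRNAs described here were the passenger (star) strands on the arrays, chosen as all rat miRNA probes whose name ended in *. There were 58 such probes among 349 rat miRNA probes (16.6%). A probe of the same name without *, called here the guide partner, was present for 51 of them. The 7 stars with no partner of the same name were miR-125b*, miR-24-1*, miR-24-2*, miR-29b-1*, miR-29b-2*, miR-30c-1* and miR-30c-2*, whose guides were not spotted under the name left when * is removed. The arrays were made from the nucleus accumbens (NAc), core and shell together, of adult male Sprague-Dawley rats weighing 150 to 180 g at the start. Both groups received intraperitoneal injections bid, with 500 ul saline in the vehicle group and alcohol at 1 g/kg in the alcohol group, and tissue was taken after 7 days. There was 1 array per group, and how the RNA of the rats was combined for an array was not given in the sources used here. Each probe had 9 repeat spots on an array, so an SD over spots measured technical error within arrays, and no difference between the groups could be tested across rats.

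A miRNA precursor folds into a hairpin, from which the enzyme Dicer cuts a short duplex. One strand of the duplex, the guide, is usually kept in an Argonaute protein and pairs with messenger RNAs through its seed, while the other, the passenger or star strand, is usually degraded. Some star strands are nevertheless loaded and act on targets of their own, and older nomenclature marked with * whichever strand had been cloned less often. The NAc is a ventral striatal region of the reward circuit.

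The sequences below are those of the 7 pairs in which both strands were detected on both arrays, since these pairs carry the comparison of guide and star. They are the target sequences given with the array files, 5′ to 3′, with the seed (bases 2 to 8) in capitals.
miR-9*: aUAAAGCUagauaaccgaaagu
miR-9: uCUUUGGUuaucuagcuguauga
miR-129*: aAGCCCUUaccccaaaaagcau
miR-129: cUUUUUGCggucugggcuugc
let-7d*: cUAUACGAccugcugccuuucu
let-7d: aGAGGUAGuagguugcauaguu
miR-138*: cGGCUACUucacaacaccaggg
miR-138: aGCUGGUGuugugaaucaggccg
miR-151*: cUAGACUGaggcuccuugagg
miR-151: uCGAGGAGcucacagucuagu
miR-379*: cUAUGUAAcaugguccacuaac
miR-379: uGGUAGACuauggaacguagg
miR-29c*: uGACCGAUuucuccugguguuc
miR-29c: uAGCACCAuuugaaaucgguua

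The next 3 stars are shown because they passed the fold threshold used below while their guide partners were not detected on at least 1 array. Their partners follow them.
miR-330*: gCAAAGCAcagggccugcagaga
miR-330: uCUCUGGGccugugucuuaggc
miR-338*: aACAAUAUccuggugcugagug
miR-338: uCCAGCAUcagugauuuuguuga
miR-543*: aAACAUUCgcggugcacuucu
miR-543: aAGUUGCCcgcguguuuuucgc

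The 58 stars held 53 distinct seeds, and no star shared its seed with any of the 291 probes without *. The largest group with 1 seed was miR-30a*, miR-30d* and miR-30e*. The other shared seeds joined miR-30c-1* with miR-30c-2*, miR-24-1* with miR-24-2*, and miR-99a* with miR-99b*. The targets of miR-30a* and miR-30e* were 1 edit apart, so that signal on these probes may come from either RNA.
miR-30a*: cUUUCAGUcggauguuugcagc
miR-30d*: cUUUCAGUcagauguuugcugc
miR-30e*: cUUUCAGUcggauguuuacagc

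The first base of the stars differed in make-up from that of their partners. A star began with C in 26, with A in 17, with U in 8 and with G in 7 of 58 cases. The partners began with U in 27, with A in 16, with C in 6 and with G in 2 of 51 cases. The median GC content was 50% for the stars and 45.5% for the partners. Exact matches to RefSeq mature sequences of the GRCr8 assembly were found for 52 of 58 stars, and 41 pairs had both strands inside 1 RefSeq hairpin. Among stars for which the order of both strands in the hairpin was found, 25 lay on the 3p arm and 13 on the 5p arm. Of the stars detected on both arrays, 10 lay on the 3p arm and 2, miR-29c* and miR-338*, on the 5p arm. No match was found for miR-151*.

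The stars detected in the NAc ran from probes near background to miR-9*, one of the brightest probes of the array. Detection required 5 or more of the 9 spots of a probe to lie over a limit. This was set 3 scaled median absolute deviations (the default scaling of R) above the median of 88 mismatched control spots. The scaled deviation was 12.22 on the vehicle and 11.35 on the alcohol array. The limit was 278 for the vehicle array and 179 for the alcohol array, as raw density in arbitrary units of spot brightness. On the vehicle array 13 of 58 stars were detected (22.4%), against 35 of 51 guide partners (68.6%). On the alcohol array 27 stars (46.6%) and 41 partners (80.4%) were detected. The share over all 349 miRNAs was 43.3% for vehicle and 56.2% for alcohol. The 13 stars of the vehicle array were all detected on the alcohol array, a further 14 were detected on the alcohol array alone, and 31 on neither. The brain miRNAs miR-124, miR-9, miR-128 and miR-138 were detected on both arrays, as was the liver miRNA miR-122, whose median raw density was 602 with vehicle and 288 with alcohol. The red cell miRNAs miR-451 and miR-144 and the neutrophil miRNA miR-223 were detected on neither array. The muscle miRNA miR-133a was detected on the vehicle array alone, with none of the other 3 muscle miRNAs on either, and 1 of 3 pancreas miRNAs, miR-375, was detected on the alcohol array alone. The part of RNA from other tissues in the star signals was not tested.

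The brightest star was miR-9*, which acts with miR-124 on neuronal chromatin remodelling. Its 9 spots had a lowest, median and highest raw density of 12635, 15270.1 and 18714 on the vehicle array. On the alcohol array they had 13264, 14620.2 and 15763. The spots of the 2 arrays overlapped, and miR-9* ranked 15th and 14th in raw density among the 349 probes. RefSeq places its sequence in 3 hairpins of GRCr8, at chr1:142849454-142849475, chr2:15933344-15933365 and chr2:175975025-175975046, all on the plus strand. The second lies in the annotated span of Mir9-2hg.

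The next brightest was miR-129*, from a hairpin on chromosome 3 (chr3:100657405-100657426, minus strand). Its spots ran from 2579 over a median of 4028 to 4637 on the vehicle array. They ran from 4667 over 5120.2 to 5429 on the alcohol array, with no overlap of the raw values. Raw ranges here and below precede normalization. Without it, the median log2 ratio of alcohol over vehicle was 0.57 over the 150 miRNAs detected on both arrays. After normalization the spots of miR-129* overlapped. let-7d*, from the opposite arm of a let-7 hairpin at chr17:16322327-16322348 (plus strand), followed on the vehicle array. Its raw density was 788, 1065 and 1551 (lowest, median and highest) on the vehicle array. It was 782, 923 and 1082 on the alcohol array, and the 2 ranges overlapped.

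A group of 4 stars had medians between 592 and 807 on the vehicle array. miR-543* comes from the imprinted cluster on chromosome 6 (chr6:134552453-134552473, plus strand). It had 627, 807 and 902 on the vehicle and 1488, 1733 and 2021 on the alcohol array, without overlap. miR-138* (chr8:131178494-131178515, plus strand) is the passenger of a miRNA that limits dendritic spine size. It had 649, 802 and 1157 on the vehicle and 1449, 1789 and 1900.4 on the alcohol array, again without overlap. After normalization the spots of miR-543* and those of miR-138* overlapped between the arrays. miR-330* (chr1:87961266-87961288, plus strand, in the span of Eml2) had 659.6, 712 and 775 on the vehicle array. On the alcohol array it had 692, 736 and 834, and the ranges overlapped. miR-338* (chr10:105796381-105796402, minus strand) lies in the span of the kinase gene Aatk, and its hairpin is known from oligodendrocytes. It had 497, 592 and 677 on the vehicle and 581, 689.5 and 785 on the alcohol array, and the ranges overlapped.

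The remaining 6 stars detected on both arrays were dimmer on the vehicle array. miR-151* had 489, 531 and 619 on the vehicle and 798, 858 and 944 on the alcohol array, without overlap. miR-140* (chr19:52375353-52375373, plus strand, in the span of Wwp2), a hairpin known from cartilage, had 318, 459 and 529 on the vehicle and 655, 707 and 734 on the alcohol array, without overlap. After normalization the spots of miR-151* and those of miR-140* overlapped, with log2 ratios of -0.25 and -0.15 (alcohol over vehicle). miR-379*, at chr6:134543496-134543517 (plus strand) in the same imprinted cluster as miR-543*, had 329, 369 and 526 on the vehicle array. It had 477, 614 and 697 on the alcohol array, which overlapped. These 3 were clearly above the limit on both arrays.

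miR-29c* (chr13:109099374-109099395, plus strand), whose guide belongs to a family known to target collagen messages, had 302, 332 and 354 on the vehicle and 379, 389 and 449 on the alcohol array, without overlap. After normalization the spots of miR-29c* overlapped, with a log2 ratio of -0.15. miR-135a* (chr7:28499183-28499204, minus strand) had 267, 288 and 322 on the vehicle and 189.5, 205 and 219.7 on the alcohol array, where all spots were lower. Of its 9 vehicle spots, 7 passed the limit. The mismatched control spots were also lower on the alcohol array, with a median of 145 against 241, so no decrease is read from raw densities this dim. miR-34c* (chr8:60306101-60306122, minus strand, in the span of Hoatz), from a p53-induced miRNA family, had 254, 286 and 292.5 on the vehicle array with 5 of 9 spots past the limit. It had 218, 273 and 326 on the alcohol array. The last 2 stars stood near the vehicle limit.

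**Figure D1:**
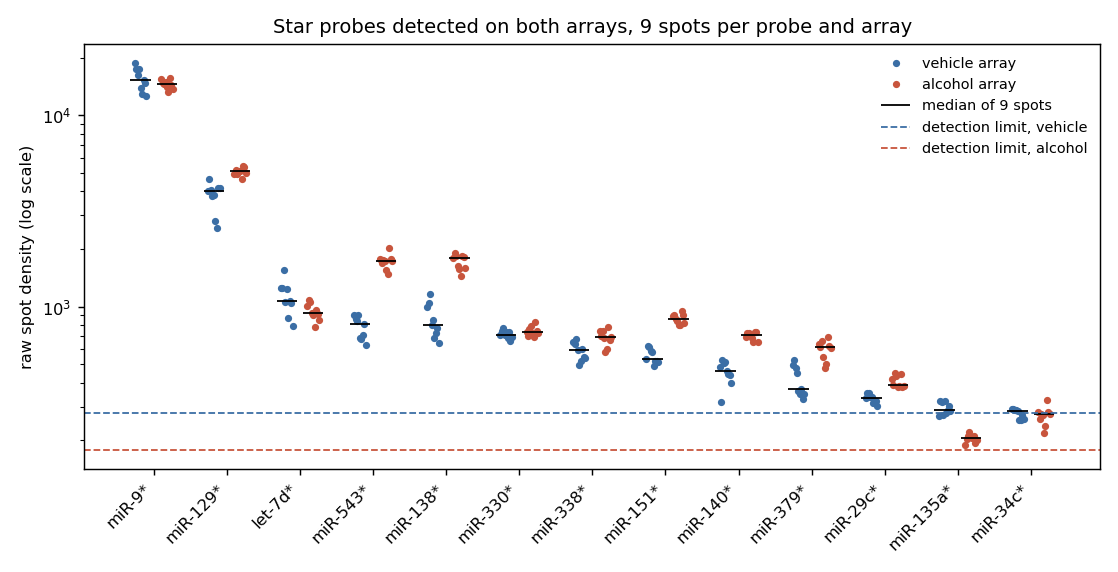
Raw density of the 9 repeat spots (points, log axis) of each of the 13 star probes detected on both arrays, in blue for the vehicle array and red for the alcohol array, with the median as a black line. Values are shown before normalization between the arrays. Dashed lines mark the detection limits of 278 (vehicle) and 179 (alcohol), and the stars run from medians of 15270.1 for miR-9* down to 286 for miR-34c* on the vehicle array.

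The 14 stars detected on the alcohol array alone were let-7b*, miR-125b*, miR-204*, miR-22*, miR-25*, miR-296*, miR-29b-2*, miR-30a*, miR-30c-2*, miR-30e*, miR-322*, miR-382*, miR-7a* and miR-872*. Their median raw densities lay between 251 and 272 on the vehicle array and between 179.8 and 308 on the alcohol array. The raw median was lower on the alcohol array for 11 of the 14, and 12 of them stayed under the density of 278 that the vehicle array required. The mismatched control spots, which set the limits, had a median of 145 on the alcohol array against 241 on the vehicle array, and the part of this difference in the detection counts was not tested. The bound on the normalized signal, alcohol over vehicle, was 1.11-fold for miR-22* and 1.10-fold for miR-30e*, and for miR-382* it was at least 1.00-fold. For miR-22* and miR-30e* it equalled the ratio to their own vehicle signal. These ratios were 0.15 ± 0.20 and 0.14 ± 0.37 (log2, SD over 9 spots), within their SDs, so no rise is read from them. For the other 11 the bound was below 1 and no fold is given. On the vehicle array miR-30e* had 4 spots past the limit, miR-29b-2* 3, miR-30a* 2, miR-204*, miR-22* and miR-872* 1 each, and the other 8 none.

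The 31 stars detected on neither array were let-7e*, let-7i*, miR-1*, miR-101a*, miR-106b*, miR-124*, miR-126*, miR-136*, miR-181a*, miR-193*, miR-196a*, miR-20a*, miR-21*, miR-218*, miR-23a*, miR-24-1*, miR-24-2*, miR-26b*, miR-27a*, miR-28*, miR-29a*, miR-29b-1*, miR-30c-1*, miR-30d*, miR-323*, miR-363*, miR-376a*, miR-378*, miR-708*, miR-99a* and miR-99b*. Their median raw densities ran from 237 to 252 on the vehicle array and from 136 to 175 on the alcohol array, below the limits. At this brightness a signal was not detectable, which does not show that the strand was absent. Of 6 stars placed in the imprinted cluster on chromosome 6, miR-379* and miR-543* were detected on both arrays and miR-382* on the alcohol array. miR-136*, miR-323* and miR-376a* were detected on neither.

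Where both strands were detected, a star was usually far dimmer than its guide. Brightness depends on the probe as well as on the RNA, so these are ratios of signals and not of molecules. They were taken within each array from the background-corrected signal, before any normalization between the arrays, and are not compared from 1 array to the other. Both strands were detected in 7 pairs with vehicle and in 19 pairs with alcohol. The median log2 signal of star minus guide was -3.31 on the vehicle array, at which the star had 10.1% of the signal of its guide. It was -3.13 on the alcohol array, or 11.4%. With cyclic loess between the arrays the medians were -3.07 and -2.85, or 11.9% and 13.9%. Over all 51 pairs, undetected strands included, the medians without this step were -1.73 (vehicle) and -3.13 (alcohol). On the vehicle array the guide alone was detected in 28 pairs, the star alone in 6 and neither in 10. On the alcohol array these counts were 22, 5 and 5.

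The guides of stars that were not detected were often bright. The widest bound was that of miR-29a*, whose guide had median densities of 21252 and 21254 on the vehicle and alcohol arrays. The star signal stood at background, so the guide was at least 142-fold brighter on the vehicle and at least 193-fold brighter on the alcohol array. For miR-124, a miRNA known for neuronal differentiation, the guide was at least 120.3-fold and at least 146-fold brighter than the star. These 2 pairs were chosen for their bounds after the values were seen. Over the 27 pairs whose star was detected on neither array, 20 guides were detected on the vehicle and 22 on the alcohol array. The median raw density of these 27 guides was 480.0 on the vehicle array, against 632 for the guides of the 13 stars detected on both arrays. The order was the reverse on the alcohol array, with 1252 against 863.

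Among pairs with both strands detected on both arrays, the star of miR-129 was brighter than its guide. The guide had 492, 632 and 709.5 (lowest, median and highest raw density) on the vehicle and 679, 749.8 and 784 on the alcohol array, and every spot of the star was brighter than every spot of the guide. The log2 signal of star minus guide was 2.89 ± 0.35 with vehicle and 2.91 ± 0.11 with alcohol, a 7.43-fold and a 7.49-fold excess. Here and below, the ± of a difference between strands is a combined SD. It is the root of the summed squares of the SDs of star and guide over 9 spots, and takes the strands as independent. With cyclic loess the excess was 5.78-fold and 9.62-fold. The guide sequence given for miR-129 and that of miR-129* are the 2 strands placed together in the hairpin named above.

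The star was also above an undetected guide on both arrays in 4 pairs. miR-543* was at least 4.39-fold brighter than its guide on the vehicle and at least 15.2-fold on the alcohol array, where the guide had medians of 238 and 152. miR-330* exceeded its guide at least 4.03-fold and at least 6.23-fold, with guide medians of 244 and 151. For miR-140* the bounds were at least 2.19-fold and at least 5.81-fold, and for miR-135a* at least 1.14-fold and at least 1.25-fold. miR-34c* was at least 1.02-fold brighter than its undetected guide on the vehicle array. On the alcohol array, where 7 of 9 guide spots were detected, it was 1.67-fold brighter. The vehicle bounds of miR-135a* and miR-34c* lay within the combined SDs of star minus guide, 0.24 and 0.18 (log2).

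miR-338 was the only pair of the 51 in which the star was measured above its guide on the vehicle array and below it on the alcohol array. Its guide had 238, 251 and 262 on the vehicle array, at background, and 701, 863 and 992 on the alcohol array. The star was at least 3.10-fold brighter than the guide on the vehicle array. On the alcohol array it had 80.1% of the signal of the guide (log2 -0.32 ± 0.26, combined SD).

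In the other 6 pairs with both strands on both arrays the star was dimmer. miR-9* came closest, with 54.3% of its guide on the alcohol array. On the vehicle array 1 of the 9 spots of the miR-9 guide stood at 289.9 while the median was 37278, so the value of 74.5% there carries a combined SD of 2.62 on the log2 scale. miR-138* had 22.5% of its guide on the vehicle and 41.5% on the alcohol array. miR-151* had 9.29% and 19.6%, and miR-379* had 10.1% and 16.4%. miR-29c* had 6.67% and 3.16%. let-7d* had 4.32% of its guide on the vehicle array. On the alcohol array it had 8.33%, where 1 guide spot stood at 176 against a median of 18606. With cyclic loess the shares were 26.1% and 35.8% for miR-138*, 11.9% and 15.3% for miR-151*, and 6.33% and 5.69% for let-7d*. For let-7d* both alcohol values, 8.33% and 5.69%, include the low guide spot.

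**Figure D2:**
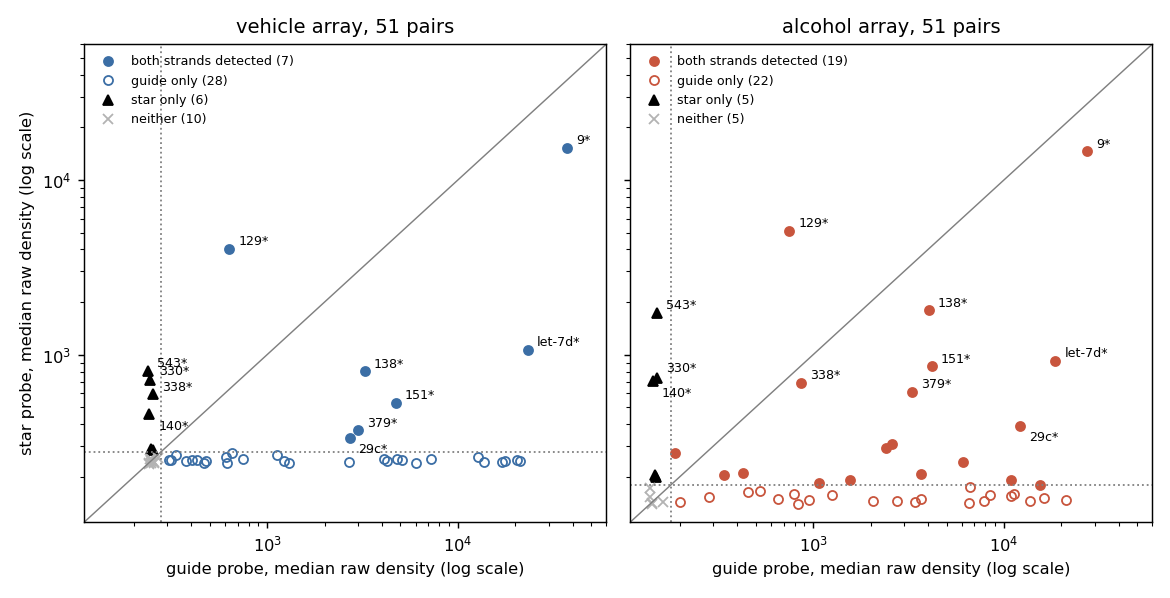
Median raw density of the star probe against that of its guide partner for the 51 pairs (log axes), on the vehicle array (left) and the alcohol array (right). Filled points have both strands detected (7 and 19 pairs), open points the guide alone (28 and 22), triangles the star alone (6 and 5), and crosses neither. The solid line marks equal density and dotted lines the detection limits, and miR-129* is the filled point furthest above the line on both arrays.

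For the comparison of alcohol with vehicle, a miRNA was eligible if it passed detection on 1 array or both and if its normalized signal reached 400 on the brighter one. A call then took a difference of 1.3-fold or more. Over all rat miRNAs 125 were eligible, of which 26.4% were called higher with alcohol and 20.8% were called lower. Of the stars 10 were eligible, with 1 called higher and 3 called lower. These few counts do not set the stars apart from the other miRNAs. The median log2 ratio of the 13 stars detected on both arrays was -0.15, beside -0.07 over all 150 such miRNAs.

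The star called higher was miR-543*, with a ratio (log2, alcohol over vehicle, as for all ratios below) of 0.41 ± 0.24 (SD over 9 spots), or 1.33-fold. Its normalized spots overlapped between the arrays. The 3 that were lower were let-7d* at -1.14 ± 0.22, miR-330* at -0.91 ± 0.11 and miR-338* at -0.72 ± 0.11 (SD over 9 spots each). They were 2.20-fold, 1.88-fold and 1.65-fold lower on the alcohol array. Their normalized spots did not overlap between the arrays, whereas their raw spots did. Of the 13 stars compared spot by spot, 4 had no such overlap after normalization, and the guides of miR-129, miR-151 and miR-379 had none either. The share over all miRNAs was not counted.

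The directions of miR-330* and miR-338* rested on the normalization. The alcohol array was brighter at intermediate densities, and the correction between the arrays moved the log2 ratios of the 13 stars by between -1.16 and 0.12, with 12 of 13 moved down. Without it the log2 ratio of miR-330* was 0.20 and that of miR-338* was 0.44, both higher on the alcohol array, while let-7d* was at -0.17 and miR-543* at 1.36, with the directions given above. The median over the 150 miRNAs was then 0.57. Relative to that median, let-7d* was at -0.74, miR-330* at -0.37, miR-338* at -0.12 and miR-543* at 0.79. Relative to their median after normalization these 4 stars were at -1.07, -0.84, -0.65 and 0.48.

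The other 9 stars detected on both arrays changed by less than 1.3-fold or were not eligible. miR-138* was at 0.27 ± 0.27, miR-9* at 0.04 ± 0.15 and miR-129* at 0.04 ± 0.30 (log2 ratio ± SD of the 9 spots). miR-140* had -0.15 ± 0.35, miR-379* -0.15 ± 0.37 and miR-151* -0.25 ± 0.18. miR-9*, miR-129*, miR-140* and miR-379* differed by less than the SD over their spots. Not eligible for their dim signal were miR-29c* at -0.15 ± 0.15, miR-34c* at -0.08 ± 0.30 and miR-135a* at -0.56 ± 0.20. The normalized spots of miR-135a* did not overlap between the arrays.

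**Figure D3:**
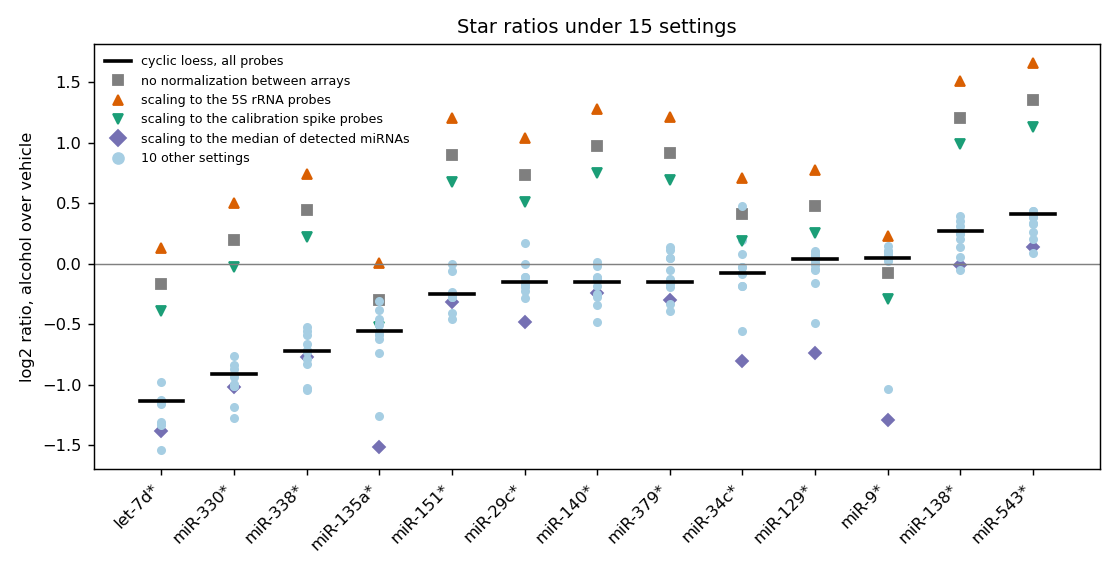
Log2 ratio of alcohol over vehicle of the 13 star miRNAs detected on both arrays under 15 settings. The black line is the cyclic loess used in the text, coloured symbols are the scalings named in the legend and pale points the 10 other settings. miR-543* lay above 0 under every setting drawn, between 0.09 and 1.66, while let-7d*, miR-330* and miR-338* crossed 0 under scaling to the 5S rRNA probes.

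Guide and star of a pair were then compared in their ratios. In 4 of the 7 pairs with both strands on both arrays, the ratios had the same sign, and the median difference of star minus guide was 0.23 on the log2 scale (SD 0.20 over the medians of single spots, and a median of 0.38 for the combined SDs of the 7 pairs). The 4 pairs of the same sign were miR-9, miR-151, miR-379 and let-7d. Among them only in miR-151 did both strands differ from 0 by more than their SD over spots. From the median of the spots miR-379* turned to 0.05 and miR-129* to -0.05. The count was again 4, with miR-129 in place of miR-379. The 28 hairpins spotted as -5p and -3p probes serve as a reference. Of these, 7 had both arms on both arrays and 4 of the 7 had ratios of the same sign. The strands of a pair share both arrays and their scaling, so a shared sign is a description.

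After normalization the strands of miR-29c were the furthest apart of the 7 pairs. The guide had 1823, 2703 and 4968 (lowest, median and highest raw density) on the vehicle and 4404, 12143 and 13143 on the alcohol array, and its log2 ratio was 1.505 ± 0.46 (SD over 9 spots). The star was at -0.15 ± 0.15, so the difference of star minus guide was -1.66 ± 0.48. Without normalization this difference was -1.08, as far from 0 as the 1.08 of miR-151.

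In 3 pairs the star ratio stood above that of the guide by more than the combined SD of the difference. For miR-129 the guide was at -0.69 ± 0.22 and the star at 0.04 ± 0.30 (difference 0.73 ± 0.37). Without normalization this difference was 0.01. For miR-138 the guide was at -0.18 ± 0.10 and the difference was 0.46 ± 0.29, or 0.88 without normalization. The guide of miR-151 had 4261, 4709 and 5120.4 on the vehicle and 3848, 4179.7 and 4317 on the alcohol array. Its ratio was -0.60 ± 0.09, and the difference was 0.36 ± 0.20, or 1.08 without normalization.

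In miR-379 the guide was at -0.37 ± 0.08 and the difference of 0.23 ± 0.38 was within its combined SD. Without normalization the guides of miR-129, miR-138 and miR-379 turned to 0.46, 0.33 and 0.21. In miR-9 and let-7d the guide ratio was set by the single low spots described above. The mean guide ratio of miR-9 was 0.72 ± 2.58 and that of let-7d was -0.98 ± 2.50. From the median of the spots they were 0.03 and -0.04. On these medians the star of miR-9 differed from its guide by 0.03, and let-7d* stood -1.10 from its guide.

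**Figure D4:**
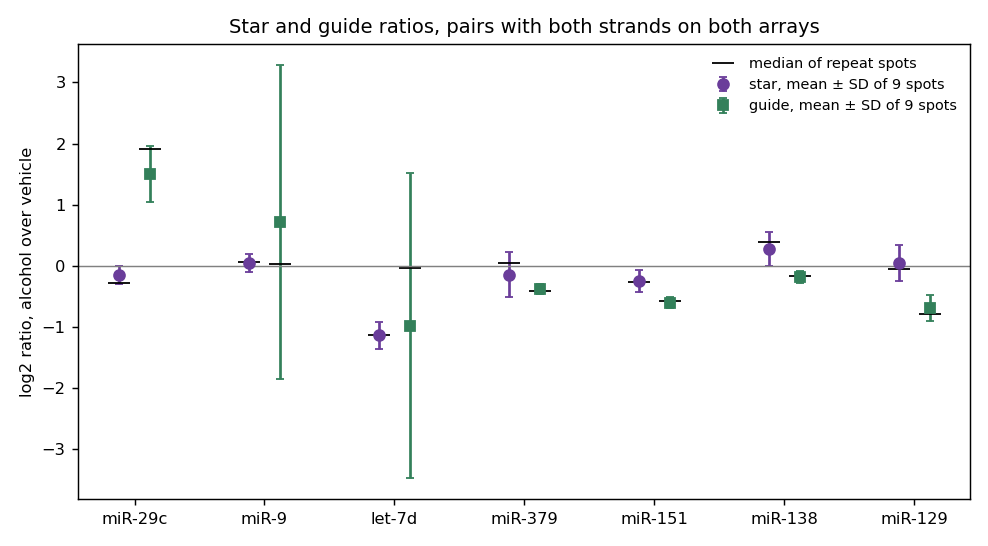
Log2 ratio of alcohol over vehicle of the star (purple circles) and the guide (green squares) in the 7 pairs with both strands detected on both arrays, as mean ± SD over 9 repeat spots, with the ratio from the median of the spots as a black dash. The strands of miR-29c are furthest apart after normalization, and the long bars of the miR-9 and let-7d guides come from 1 spot each.

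For the 3 other stars past the fold threshold the guide could not be followed on both arrays. The guide of miR-338 was at least 3.09-fold higher with alcohol, whereas its star was 1.65-fold lower. The direction of this star rested on the normalization, without which its log2 ratio was 0.44. The guides of miR-330* and miR-543* were detected on neither array, so no ratio is given for them.

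Several guides of the stars detected on the alcohol array alone passed the fold threshold. Of these stars 11 had a partner and 8 partners were eligible, of which 4 were called higher and 2 called lower. The shares over all 125 eligible miRNAs were 26.4% and 20.8%, and of all 35 eligible partners 13 were called higher and 6 lower. Both sets include miR-9 as higher and let-7d as lower, calls set by the single low spots described above. From the median of the spots the log2 ratios of these guides were 0.03 and -0.04. The higher guides were miR-22 (1.35 ± 0.20 on the log2 scale), miR-30a (1.71 ± 0.47), miR-30e (1.28 ± 0.26) and miR-204 (at least 4.54-fold). The lower guides were miR-25 (-0.41 ± 0.27) and miR-382 (-0.61 ± 0.05, SD over 9 spots each). The stars of these 6 pairs had bounds of at most 1.11-fold or none. The star of miR-382 had 238.5, 254 and 258 on the vehicle and 172.5, 208 and 239.7 on the alcohol array, so its direction could not be compared with that of its guide.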

How the data were processed

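Small RNA of the NAc was labelled with Cy3 and hybridized to 1-colour miRNA arrays (miRRat 9.2 version, LC Sciences), 1 array per group. The spot intensity that the authors deposited is the mean density of each spot with no background subtracted. A second deposited intensity holds 1 processed signal per probe after the authors' background subtraction and normalization between arrays, and served as an alternative.

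Spot densities were corrected with normexp (offset 50, limma 3.58.1, R 4.3.3), log2-transformed and averaged over 9 repeat spots. Between arrays, cyclic loess (span 0.7, 3 iterations) was fitted on the 349 rat miRNA probes. Star and guide signals were compared within an array before this step. Bounds for undetected probes used the higher of their own signal and the lowest signal of a detected probe on that array. Tables were made with Python 3.11.15, numpy 2.4.6 and pandas 2.3.3. Scripts were tested on simulated data with known changes. Exact matches of target sequences gave names and positions in RefSeq (GRCr8), and gene spans were taken without strand.

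All stars detected on both arrays were named with their partners, those detected on 1 array by name, and the rest by name and range. Pairs singled out were the 3 with the largest and the 3 with the smallest difference of ratios, and those whose star exceeded its guide on both arrays. The members, lists and detection rule were chosen with earlier results of these data known. With 1 array per group no test was possible, and precision is limited by the number of arrays. The ratios were recomputed under 14 other settings.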

Additional observations from a re-analysis of the deposited data

How the results depend on the processing

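No paired analysis was possible because a group held a single array. The counts of stars at least 1.3-fold higher and lower (1 and 3) became 8 and 0 with scaling to the 5S rRNA probes, 7 and 0 without normalization, 5 and 1 with the calibration spikes, 0 and 5 with the authors' processed signal and also 0 and 5 under median scaling. Over all miRNAs these counts moved from 33 and 26 to 100 and 2 with 5S scaling and 85 and 8 without normalization. They were 69 and 19 with the spikes, 25 and 33 in the authors' signal and 17 and 79 under median scaling. The 75th percentile gave 5 stars lower, beside 60 of all miRNAs. Quantile normalization, loess over detected miRNAs and subtraction of the mismatched controls each gave 0 higher, beside 27, 34 and 24 of all miRNAs. At 1.5-fold 0 stars were higher and 3 lower, beside 19 and 21 of all miRNAs. At 2-fold 0 stars were higher and 1 lower, beside 11 and 5 of all miRNAs. The log2 ratio of miR-330* turned to 0.20 without normalization and 0.50 with 5S scaling, that of miR-338* to 0.44, 0.75 and, with the spikes, 0.22, and that of let-7d* to 0.13 with 5S scaling. The median star ratio moved from -0.15 to 0.78 with 5S scaling, 0.48 without normalization, 0.25 with the spikes, -0.49 on the 75th percentile, -0.74 under median scaling and -0.33 after subtraction of the mismatched controls. Pairs of the same sign numbered 6 of 7 under 5S and median scaling, 5 under 4 other settings (no normalization, the 75th percentile, loess over detected miRNAs, subtraction of the mismatched controls), 3 from the last 4 spots and 2 from the first 5. The median difference of star minus guide was 0.71 under each constant scaling and also without normalization, 0.022 from the first 5 spots and 0.56 from the last 4. On the vehicle array 58 stars passed the limit from the empty spots, which were darker than spots with a probe. The limit from the empty spots of the alcohol array was passed by 28 stars. This order of the arrays is the reverse of that under the mismatched controls, with 13 (vehicle) and 27 (alcohol). The median log2 signal of star minus guide was -1.73 over all pairs (vehicle) and, on raw density, -2.82 (vehicle) and -2.55 (alcohol). It was -3.81 on the alcohol array in the authors' signal, and -3.07 and -2.85 with cyclic loess, an alternative chosen after seeing the data. Causes were not tested. Brightness near background limits the dim stars.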
